A study of Mus musculus with 2 samples.

Results

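The loci described here were the 27 genes annotated only with small nuclear RNA transcripts that held 10 or more estimated counts in the gene tables of both libraries, of 1383 genes in that class and 55536 genes in all. The loci were selected on these same estimated counts, so their levels are a description. Both libraries came from bone marrow-derived macrophages of C57BL/6J mice that had received Lipid A, the part of lipopolysaccharide sensed by Tlr4, at 100 ng/ml for 120 min. RNA of the nucleoplasmic fraction (1 label field says only nucleus) was depleted of ribosomal RNA and sequenced as total RNA. They formed a single group of biological replicates (1 and 2) that share a donor entry but not a biosample entry. Replicate 1 was made from 1 µg of RNA and replicate 2 from 500 ng, so the effect of the input and that of the replicate cannot be told apart. No unstimulated culture was analysed here, and nothing was tested between groups.

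Small nuclear RNAs are short, stable, noncoding RNAs that work as ribonucleoproteins in the nucleus. U1 pairs with the 5′ splice site of an intron, U2 pairs with the branch point, and U4 travels with U6 and U5 into the major spliceosome and keeps U6 inactive until it is released. U12 takes the place of U2 in the minor spliceosome, which removes a rare class of introns. All these except U6 are made by RNA polymerase II, are trimmed at the 3′ end by the Integrator complex and carry a ring of Sm proteins on a short uridine-rich site. U6 is made by RNA polymerase III and carries an LSm ring. Mammalian genomes hold many copies of these genes, some identical and many of them degenerate pseudogenes.

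The 27 loci had 15 distinct sequences. By alignment to the loci with an Rnu symbol, 14 loci were U1 (6 sequences), 10 were U2 (6 sequences) and 1 was U12. The other 2, Gm24265 and Gm24407, matched no locus with an Rnu symbol, and their sequence is that of U4 RNA; they are called the U4-sequence loci. The sequences below are the annotated transcripts of GENCODE M21 on GRCm38 (mm10), read 5′ to 3′ on the strand of the gene. In the first sequence of each of the 4 kinds of RNA the capitals mark the splice-site or branch-point pairing stretch of U1 or U2 and the Sm site of each. In every other sequence the capitals mark the bases that differ from the first one, with an inserted base also in capitals. Positions are counted from 1 at the 5′ end of the first sequence, with its base written first.
The U1 sequences are shown because single bases decided which counts could be given to a locus. Rnu1a1 (chr11:87422867-87423030, plus strand) has the sequence of 7 loci, Gm22513 (chr12:54696782-54696945, plus strand) differs from it by T60C alone, and Gm22614 (chr3:96488729-96488893, plus strand) differs by T60C, T62C, C73T, C74G and A77G and 1 inserted base.
Rnu1a1: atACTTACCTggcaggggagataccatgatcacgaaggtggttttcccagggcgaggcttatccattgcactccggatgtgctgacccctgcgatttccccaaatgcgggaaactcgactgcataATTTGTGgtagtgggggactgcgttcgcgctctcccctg
Gm22513: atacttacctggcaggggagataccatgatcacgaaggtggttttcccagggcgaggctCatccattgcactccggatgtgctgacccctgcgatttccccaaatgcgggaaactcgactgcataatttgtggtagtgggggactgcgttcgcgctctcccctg
Gm22614: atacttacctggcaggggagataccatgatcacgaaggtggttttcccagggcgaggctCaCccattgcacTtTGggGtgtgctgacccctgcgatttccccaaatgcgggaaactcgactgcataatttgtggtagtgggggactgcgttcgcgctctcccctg
The U2 sequences are shown because 1 base separates loci whose counts moved apart. Rnu2-10 (chr11:101658238-101658428, plus strand) has the sequence of 4 loci. Gm23444 (chr11:83271498-83271688, plus strand) differs from it by G109C, Gm24497 (chr1:72244213-72244403, plus strand) by G109C and C186A, and Gm25939 (chr1:72255008-72255198, plus strand) by T69C, C78T and G109C.
Rnu2-10: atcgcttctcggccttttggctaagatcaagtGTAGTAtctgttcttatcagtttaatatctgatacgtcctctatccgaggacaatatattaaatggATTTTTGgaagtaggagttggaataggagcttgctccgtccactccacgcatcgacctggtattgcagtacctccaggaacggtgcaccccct
Gm23444: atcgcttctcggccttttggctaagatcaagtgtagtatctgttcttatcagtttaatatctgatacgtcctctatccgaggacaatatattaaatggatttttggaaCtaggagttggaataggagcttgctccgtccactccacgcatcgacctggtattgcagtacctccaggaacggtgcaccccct
Gm24497: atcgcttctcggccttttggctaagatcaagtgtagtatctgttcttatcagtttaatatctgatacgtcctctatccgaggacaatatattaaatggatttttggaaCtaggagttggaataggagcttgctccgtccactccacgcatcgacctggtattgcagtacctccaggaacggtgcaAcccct
Gm25939: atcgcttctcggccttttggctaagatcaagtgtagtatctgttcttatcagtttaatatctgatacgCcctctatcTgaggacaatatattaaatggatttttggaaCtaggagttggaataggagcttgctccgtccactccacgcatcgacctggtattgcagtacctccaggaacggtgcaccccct
The U4-sequence loci and Rnu12 are shown because they were the shortest loci and differed most between the libraries. Gm24265 (chr5:115489459-115489599, plus strand) and Gm24407 (chr5:115490254-115490394, plus strand) differ by G88A and C99A. Rnu12 lies at chr15:83149644-83149794 on the plus strand.
Gm24265: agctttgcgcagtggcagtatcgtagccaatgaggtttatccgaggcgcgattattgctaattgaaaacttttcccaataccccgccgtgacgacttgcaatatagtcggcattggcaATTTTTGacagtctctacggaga
Gm24407: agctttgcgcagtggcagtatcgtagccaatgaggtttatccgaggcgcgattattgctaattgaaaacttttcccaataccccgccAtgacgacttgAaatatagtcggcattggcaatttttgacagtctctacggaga
Rnu12: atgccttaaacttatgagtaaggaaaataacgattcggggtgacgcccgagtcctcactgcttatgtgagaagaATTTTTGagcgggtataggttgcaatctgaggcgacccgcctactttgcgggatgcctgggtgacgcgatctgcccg

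The remaining 5 sequences lay close to these, with 1 exception. Rnu1b1 and Rnu1b2 share a U1 sequence that differs from Gm22614 by C33T. Gm24305 differs from Rnu1a1 by A26G. Gm25360 differs from Rnu2-10 by C78T, A95G, G109C and C154T, and Gm22973 differs from it at 9 bases (95.3% identity). Gm24145 was the most diverged U1 locus, with 33 substitutions and 1 gap against Rnu1a1, 2 of them (A7G and C8T) in the stretch that pairs with the 5′ splice site.

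Short motifs were searched in all 1383 annotated sequences. The U1 stretch ACTTACCT was found in 13 of the 14 U1 loci, all but Gm24145, and in 60 sequences (4.34%) of the class, with 1 (0.0723%) on the reverse strand. The U2 stretch GTAGTA was found in 10 of 10 U2 loci and in 3.69% of the class, with 1.16% on the reverse strand. An Sm site written as ATTTNTG was found in 27 of 27 loci and in 283 sequences (20.5%) of the class, with 12.7% on the reverse strand. In 26 of the 27 loci the match lay at the Sm site of the family. In Gm24145 it lay elsewhere, starting at position 147 of its own sequence, and A126T had changed the letters where the site of Rnu1a1 begins. The 3 motifs did not overlap one another in the sequences printed above. A match says only that the letters are present.

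The loci lay in a few clusters, each of 1 family. On chromosome 12, 7 U1 loci spanned 41.8 kb (chr12:54696782-54738622) and held 7580 counts in replicate 1 and 5366 in replicate 2. On chromosome 3, 4 of the 7 annotated small nuclear RNA genes within 129 kb (chr3:96359953-96488893) were among the 27, all U1, with 1717 and 1249 counts. Rnu1a1 and Gm22068 stood 4.01 kb apart end to end on chromosome 11. The U2 loci formed a cluster of 4 with the Rnu2-10 sequence over 31.1 kb (chr11:101627366-101658428; 13955 and 8124 counts) and a cluster of 4 with 4 different sequences over 29 kb (chr1:72226240-72255198; 10292 and 8186 counts). The U4-sequence loci stood within 0.936 kb of chromosome 5. Copies of a sequence hold even shares of its counts, so the total of a cluster with copies elsewhere depends on that split. This holds for the chromosome 12 cluster, since Rnu1a1 and Gm22068 on chromosome 11 share the sequence of most of its loci. It also holds for the chromosome 1 cluster, where Gm23472 has its copy Gm23444 on chromosome 11.

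Of the 27 loci, 7 lay within an intron of a longer gene on the same strand. Rnu1a1 and Gm22068 lay in Tex14, which had 4 and 7 counts. Gm23472, Gm24497 and Gm25939 lay in the long noncoding RNA gene D230017M19Rik (5 and 8 counts), and Gm23849 lay in Rdm1 (11 and 12 counts). Gm24145 lay in Zc3h7a, which had 20193 and 23693 counts. Reads of Gm24145 and of unspliced Zc3h7a RNA cannot be told apart here, which makes the 18 and 13 counts of Gm24145 uncertain.

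The 27 loci held 40751 of 14374739 estimated counts in replicate 1 (0.283%, 95% Wilson interval 0.281 to 0.286) and 26532 of 16372797 in replicate 2 (0.162%, 0.16 to 0.164). The mean share was 0.223 ± 0.0859% (SD, n = 2, here and below). The share in replicate 1 was above that in replicate 2 and the counting intervals did not overlap, but those intervals cover counting error only. The 27 loci held 99.1% and 96.9% of all counts of their class. In TPM, which divides each count by an effective length and scales the library to 1 total, they held 22.3% and 11% of the library. A lower value in a bulk library cannot be divided into fewer cells and less RNA per cell.

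The libraries differed in other ways as well. Mitochondrial genes took 0.424% of counts in replicate 1 and 8.7% in replicate 2. The 8 macrophage markers all stood at 1 TPM or more in both libraries (summed 1152 and 2739 TPM), while the 7 stromal markers summed to 76.1 and 0.32 TPM. Markers of other cells stood low, at 35 and 13 counts for 5 B cell genes, 4 and 2 for 5 T cell genes (Cd3e and Cd3g at 0) and 7 and 16 for 5 neutrophil genes (Ly6g at 0). The erythroid gene Alas2 stood at 3.37 and 1.71 TPM. The part of input, mitochondrial RNA and stromal RNA in the values of the small nuclear RNA loci was not tested.

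**Figure D1:**
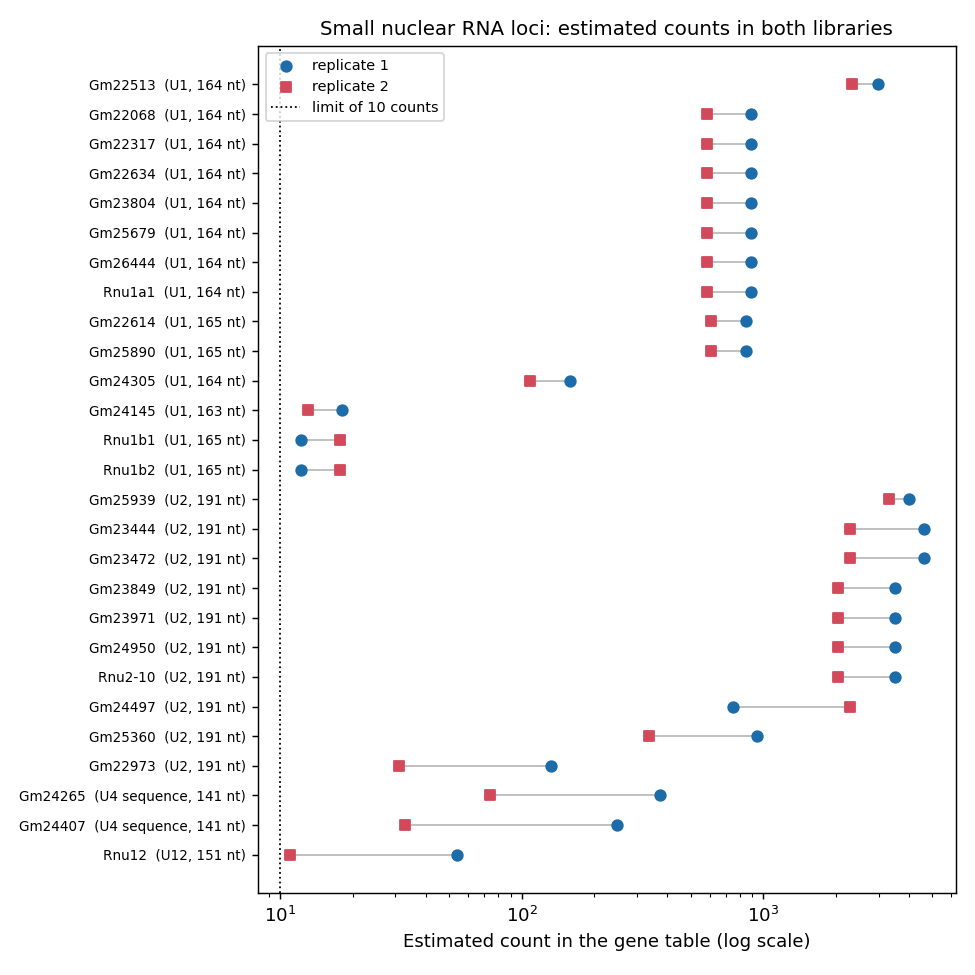
Estimated counts of the 27 small nuclear RNA loci in replicate 1 (circles) and replicate 2 (squares) on a log scale, by family and annotated length in nt. The dotted line is the limit of 10 counts; 24 loci have the circle to the right of the square, and Gm24497, Rnu1b1 and Rnu1b2 have it to the left.

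U2 loci held most of the counts. The 10 loci summed to 28989 counts in replicate 1 and 18616 in replicate 2, which is 71.1% and 70.2% of the counts of all 27 loci, or 1577 ± 622 CPM (counts scaled by the library total). The 14 U1 loci summed to 11087 and 7799 counts (27.2% and 29.4%; 624 ± 209 CPM). The U4-sequence loci followed with 621 and 107 counts (24.9 ± 25.9 CPM) and Rnu12 with 54 and 11 (2.21 ± 2.18 CPM). Both libraries placed the families in this order.

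How far U2 stood above U1 depended on the length correction. The ratio of U2 to U1 was 2.61 in replicate 1 and 2.39 in replicate 2 by counts, and 2.25 and 2.05 by counts per annotated base. By TPM it was only 1.17 and 1.04, because the effective length of a U2 locus (18.52 and 16.01 nt) was over 2-fold that of the 164-nt U1 loci (8.23 and 6.92 nt). Among the 27 loci the order stayed the same on each scale. By TPM in replicate 2 it was close, at 54756 for U2 and 52747 for U1. These sums leave out the 164-nt U1 locus Gm24924, outside the limit, with 0 and 805.75 counts. In replicate 2 Rnu1a1, of equal length, had 3983 TPM from 585.43 counts. Adding Gm24924 would thus place U1 above U2 by TPM in replicate 2.

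Among U2 loci, the Rnu2-10 sequence gathered most counts. Rnu2-10, Gm23849, Gm23971 and Gm24950 each had 3488.69 counts in replicate 1 and 2030.92 in replicate 2, summing to 13955 and 8124 (733 ± 336 CPM). Gm23444 and Gm23472, which share a sequence although they lie on chromosomes 11 and 1, each had 4610.61 and 2275.23 counts. Gm25939 had 3993.64 and 3298.31 (240 ± 54 CPM). This last locus had the closest replicates of the U2 loci, with a log2 ratio of replicate 2 over replicate 1 of -0.24 on counts scaled by TMM, edgeR's correction for library composition.

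The other U2 loci were lower and further apart. Gm25360 had 939 and 337 counts and Gm22973 had 132 and 31. Both were over 2-fold lower in replicate 2, with TMM-scaled log2 ratios of -1.44 and -2.03. Gm24497 went the other way, with 748.69 and 2275.23 counts (log2 ratio 1.64).

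Gm24497 is 1 base (C186A, near the 3′ end) away from Gm23444 and Gm23472. In replicate 2 its deposited count was the same as theirs, 2275.23, and in replicate 1 it was far below their 4610.61. The deposited posterior mean, an average over sampled assignments of the reads, gave Gm24497 3100 ± 1207 (posterior SD) and 2172 ± 1093 counts. On that measure replicate 2 was the lower one, and the same held in the read-based transcript table, at 1782 and 1639 counts. The sum of the 3 loci was 9970 and 6826 by both gene-table measures and 11522 and 9063 in the read-based table. Of these 3 measures, the maximum likelihood count alone placed Gm24497 higher in replicate 2, while the sum it was split from was lower there (TMM-scaled log2 ratio -0.51).

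**Figure D2:**
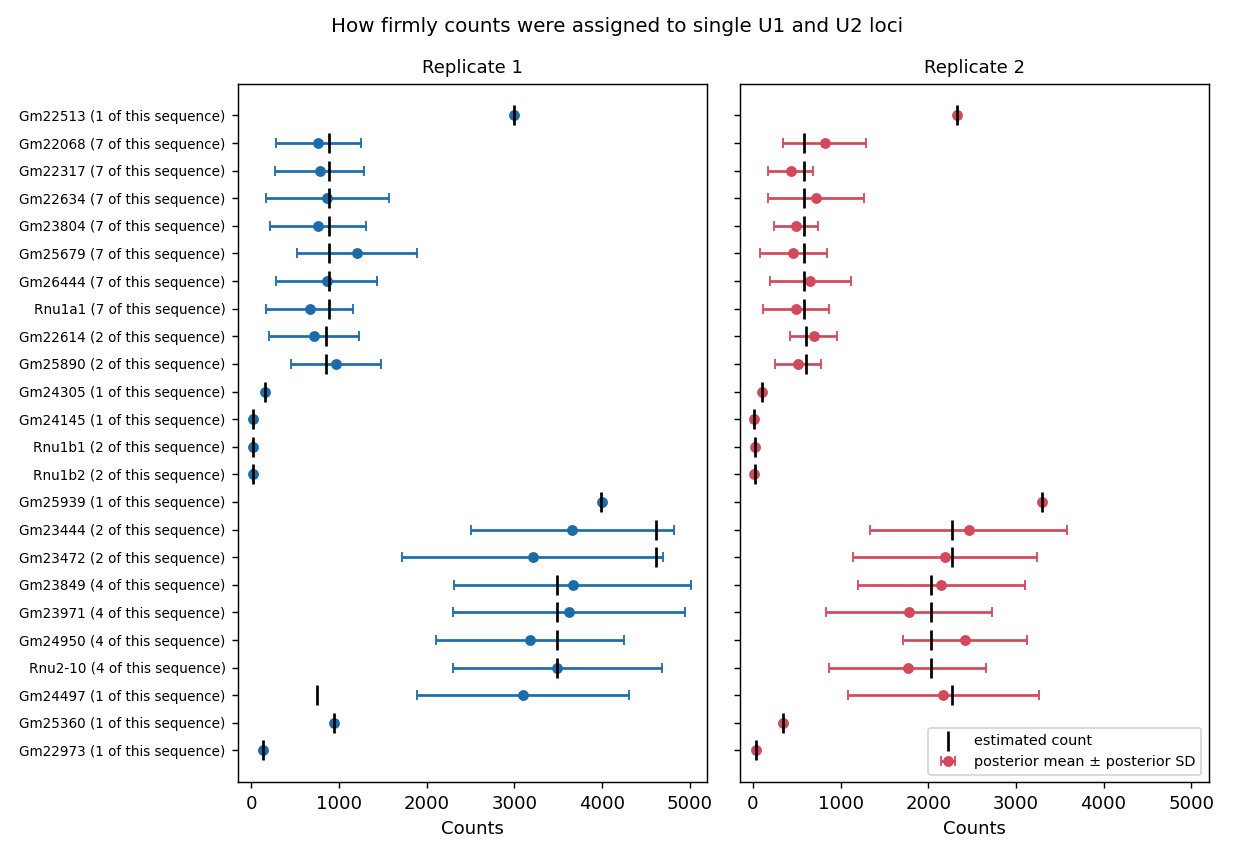
Deposited estimated count (black bar) and posterior mean with posterior SD (point and line) of the 24 U1 and U2 loci in each replicate, in counts. Loci that share their sequence and have over 500 counts have wide lines, as does Gm24497 although its sequence is its own; the other loci have lines too short to see. In replicate 1 the count of Gm24497 (748.69) lies left of its line around 3100.

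U1 was led by the sequence of Rnu1a1. Rnu1a1, Gm22068, Gm22317, Gm22634, Gm23804, Gm25679 and Gm26444 each had 885.89 counts in replicate 1 and 585.43 in replicate 2, summing to 6201 and 4098 (341 ± 128 CPM). Their posterior means summed to 5893 and 4060. The U1 locus Gm24924, of equal length but outside the limit, had 0 and 805.75 counts, with posterior means of 171 and 572. Gm26244, also U1 and outside the limit, had 0 and 0.02 counts, with posterior means of 137 and 271. The part of counts assigned to these loci in the difference between the libraries was not tested. Gm22513, 1 base away from the Rnu1a1 sequence, had 2993 and 2331.38 counts (175 ± 46.5 CPM). This was the highest deposited count of any single U1 locus in both libraries, but by sequence it stood below the sum for Rnu1a1. Its deposited TPM, 25828 and 15860, was also the highest of any single one of the 27 loci. These rankings set a locus without copies against copies that hold an even share of their sequence. Gm24305 had 157.8 and 107.84 counts.

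Mouse U1 variants of the b type are known from early development. Loci nearest to Rnu1b1 in sequence held 15.6% (Wilson interval 15 to 16.3) of the counts of the 14 U1 loci in replicate 1 and 16.2% (15.4 to 17) in replicate 2. Nearly all of that came from Gm22614 and Gm25890, with 846.38 and 606.63 counts each. Rnu1b1 and Rnu1b2 themselves had 12.17 and 17.64 counts each. Loci nearest to Rnu1a1 held the remaining 84.4% and 83.8%, and the intervals of the replicates overlapped. Over all U1 loci with a count, Gm24924 included, loci nearest to Rnu1b1 held 16.6% (15.9 to 17.3) and 14.9% (14.2 to 15.7), and there the intervals did not overlap and the order of the replicates was the other one.

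Equal counts went with equal sequence. The 27 loci fell into 5 groups with identical counts in both libraries, which hold 17 loci, and 10 loci with counts of their own. The same 5 groups and 10 single loci came from identity of the annotated sequence. The deposited count of a copy is thus an even share of the count of its sequence and says nothing of which copy was transcribed. Over the 17 loci with copies, the posterior SD ranged from 25.2% to 78.9% of the count in replicate 1 and from 34.7% to 93.9% in replicate 2. For 9 of the 10 loci without a copy, Gm24497 left out, it was at most 4.42% and 4.13%.

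Posterior means of the copies differed among themselves. Over the 7 loci with the Rnu1a1 sequence they ran from 663 (Rnu1a1) to 1208 (Gm25679) in replicate 1 and from 430 (Gm22317) to 818 (Gm22068) in replicate 2. The mean posterior SD of these copies was 64.4% and 67.3% of the count. The locus that was highest in replicate 1 was not the highest in replicate 2.

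The U4-sequence loci and Rnu12, the 3 shortest loci, showed the widest gaps between the libraries in the gene tables. Gm24265 had 372 counts in replicate 1 and 74 in replicate 2, and Gm24407 had 249 and 33. Rnu12 had 54 and 11. Their posterior SD was 0 in both libraries, which means that the sampling moved none of their reads to another annotated gene. The TMM-scaled log2 ratios were -2.28, -2.86 and -2.21.

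Against the other genes, most of the 27 loci were lower in replicate 2. On log2(TPM + 1) relative to the median gene, whose own shift was -0.58, the median over the 27 loci was -0.36 and 24 of 27 lay below 0, beside 6323 of the 12647 genes whose mean was at least 1 TPM. Over 2-fold lower were 5 loci (Gm24407 at -2.68, Gm24265 at -2.09, Rnu12 at -2.04, Gm22973 at -1.88 and Gm25360 at -1.28), where 5.01% of all genes passed that fold. Gm24497 alone was over 2-fold higher (1.80), where 5.31% of all genes were. TMM scaling gave the same 5 and 1 loci, with 5.61% and 6.44% of all genes, and a median of -0.56. Copies of a sequence have equal values and are not separate observations. Over the 15 distinct sequences, 13 lay below 0, with a median of -0.36 by TPM and -0.56 with TMM scaling. No p-value exists for these differences, and the SD of the difference over all genes was 0.81.

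**Figure D3:**
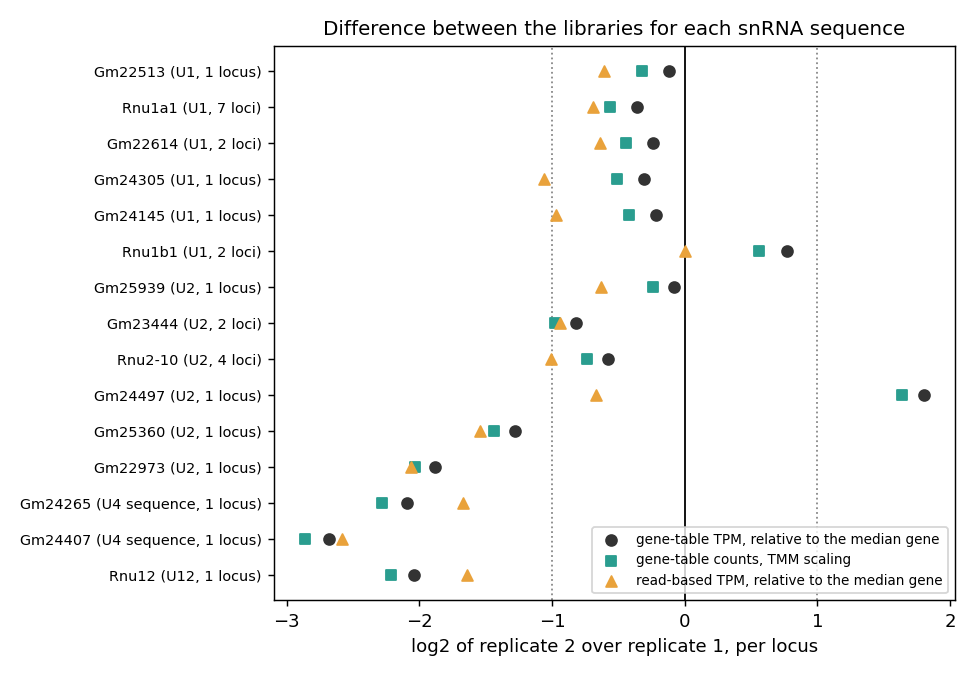
Log2 of replicate 2 over replicate 1 for each of the 15 sequences, from gene-table TPM and read-based TPM relative to the median gene and from TMM-scaled counts; dotted lines mark 2-fold. Gm24407, Gm24265, Rnu12, Gm22973 and Gm25360 lie left of the lower line on all 3 measures, and Gm24497 lies at 1.80 and 1.64 on the gene-table measures and at -0.67 on the read-based one.

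In the read-based table the split was similar except for Gm24497. There 25 of the 27 loci lay below 0 relative to the median gene, with a median of -0.69. Over the 15 distinct sequences, 14 lay below 0, with a median of -0.97. Over 2-fold lower were 10 loci, of 7 sequences, where 5.43% of all genes passed, and none was over 2-fold higher, where 4.59% of all genes were. The added ones were the 4 loci with the Rnu2-10 sequence (-1.01) and Gm24305 (-1.06).

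Most loci of the class had an effective length of 0 in the gene table. The effective length in the gene table is the number of start positions at which a fragment of the library's lengths fits, and the labels give a size range of 250 to 400 with no unit. It was 0 for 1101 of the 1383 genes in replicate 1 and 1106 in replicate 2, up to an annotated length of 126 and 128 nt. These genes held 3 and 1 gene-table counts in all. The 27 loci were 141 to 191 nt long, while the median of the class was 107 nt. Effective lengths were 2.81 and 2.37 nt for the U4-sequence loci, 4.78 and 4.01 for Rnu12, 8.23 and 6.92 for Rnu1a1 and 18.52 and 16.01 for U2. They were shorter in replicate 2 for each of these loci, and the part of this in the lower counts was not tested.

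Genes shorter than the shortest of the 27 were nearly empty in the gene tables only. The 1133 such genes held 3 and 1 counts there but 4865 and 3968 in the read-based table. Genes of 141 to 159 nt held 684 and 120 counts against 2225 and 1000, those of 160 to 179 nt held 11223 and 8631 against 12987 and 11722, and those of 180 to 200 nt held 29219 and 18624 against 34151 and 25959. The gap between the quantifications was thus widest below 160 nt. All 603 U6 genes had an effective length of 0 and no gene-table count, with 1917 and 1356 read-based counts. U5 (10 genes; 179 and 130), U7 (45 genes; 33 and 25) and U11 (5 genes; 1 and 0) had no gene-table count either.

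**Figure D4:**
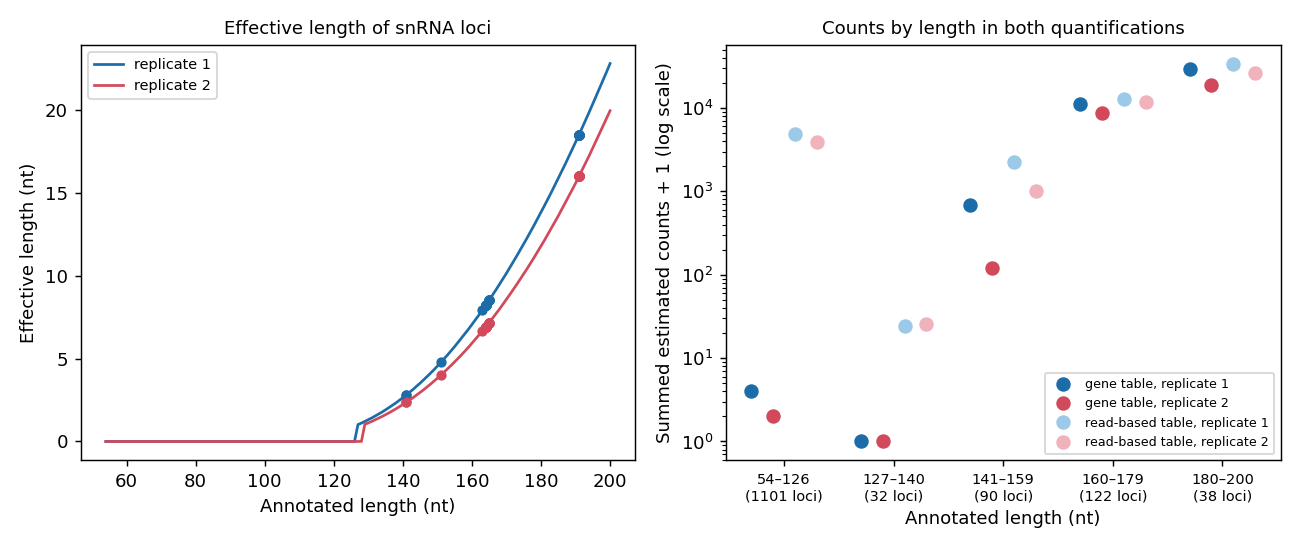
Left, effective length in nt against annotated length in nt for the small nuclear RNA class, with points for the 27 loci. Right, summed estimated counts plus 1 on a log scale by length class in the gene table (dark) and the read-based table (light); at 54 to 126 nt the counts are 3 and 1 by gene table and 4842 and 3943 by read-based table.

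Single loci showed such gaps as well, though not all of them were below 160 nt. Rnu12 had 54 and 11 counts in the gene tables but 555 and 252 in the read-based table, a ratio of 10.3 and 22.9. Gm24265 had 905 and 386 there, Gm24407 475 and 107, and Gm24145, inside Zc3h7a, 170 and 124. For the 22 loci of 160 nt or more other than Gm24145 and Gm24497, the read-based count was 1.05 to 1.21 times the gene-table count in replicate 1 and 1.1 to 1.75 times in replicate 2. The U4-sequence loci and Rnu12 were lower in replicate 2 by both quantifications, with read-based log2 ratios of -1.67, -2.58 and -1.64 relative to the median gene. In that table Gm22973, a U2 locus of 191 nt, differed more (-2.06) than Gm24265 and Rnu12.

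The limit of 10 counts passed close to several U1 loci. Just inside were Rnu12 and the pair Rnu1b1 and Rnu1b2, with the counts given above. Just outside were Gm24830, Gm26232 and Rnu1b6, U1 loci of 166 nt with 39.96 and 7.82 counts each. Chosen after their values were seen, 2 more loci show how the limit in both libraries acted. The U2 locus Gm26316, which differs from Rnu2-10 by C170T, had 225.65 and 5.33 counts. The U1 locus Gm24924 had 0 and 805.75 counts, with posterior means of 171 ± 143 and 572 ± 269 and read-based counts of 139 and 297.

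Genes that make, assemble and form small nuclear ribonucleoproteins were read from a list of 82. Of these, 73 stood at 1 TPM or more in both libraries. The median over all 82, by the mean of both libraries, was 5.07 TPM. The highest of each group by the mean of both libraries, though not always in each library, were Sf3b1 (160 and 95.2 TPM), which clamps the U2 and branch-point duplex, Snrnp70 (171 and 78.8), which binds the first stem of U1, and Zcrb1 (46.6 and 33.8) of the U11/U12 particle. They continued with Eftud2 (17.1 and 15.2), the U5 GTPase, Snapc3 (42.4 and 24.5), a subunit of the factor that starts small nuclear RNA transcription, and Ints13 (36.6 and 24.2) of Integrator. Tgs1, which hypermethylates the cap, stood at 50.8 and 37.4 TPM, Usb1, which trims U6, at 62.3 and 39.7, Lsm8 of the U6 ring at 6.59 and 3.79, Snrpd1 of the Sm ring at 9.06 and 12.2, and Strap of the SMN assembly complex at 5.73 and 6.69.

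Between the libraries, the median of this list had the other sign than that of the small nuclear RNA loci. Of the 76 genes whose mean was at least 1 TPM, 52 were higher in replicate 2 relative to the median gene, and the list's median log2 ratio was 0.20, against -0.36 for the 27 loci. None was over 2-fold lower and 1 was over 2-fold higher, Lsm6 (1.71 and 2.78 TPM; log2 ratio 1.06, and 0.50 with TMM scaling). Shares of all genes past these folds are those given above for TPM, and the difference between the list and the loci was not tested.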

How the data were processed

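For each of 2 libraries, a gene-level table and a read-based transcript table were used. Per the file headers, the authors deposited expected counts (estimated, not always whole), TPM and FPKM per gene, with a posterior mean and SD of each count. Build mm10 and annotation M21 are per the accompanying notes. For aligner, quantifier, versions and strand the entry is: not given in the sources used here. RSEM and kallisto write columns of these names. Entries without a gene name held 1.41% and 0.245% of counts and were left out of lists.

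The 27 loci, the gene lists and the markers were chosen with earlier results of these data known. Families were assigned by local alignment (Biopython 1.88) to loci with an Rnu symbol at 80% identity over 80% of the locus. Loci left over were also aligned to Gm24265, a step added after seeing the data. All 27 loci were found in GENCODE M21. None matched the RefSeq promoter table. The result of 1 marker list is not reported here.

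Differences are log2((TPM + 1) of replicate 2 over replicate 1) minus the median of the genes whose mean TPM is at least 1; the pseudocount understates changes of low genes. TMM factors (edgeR 4.0.16; 1.014 and 0.987) and DESeq2 1.42.0 size factors served for scaling only, and 0.5 was added to scaled counts. The ratio was tested on simulated data. Other steps used R 4.3.3, Python 3.11.15, pandas 2.3.3, numpy 2.4.6 and matplotlib 3.10.9. Gene-table totals were 14374739 and 16372797 counts. Read-based totals were 21039284 and 27514005, over 55450 of the 55536 genes and the unnamed entries. Wilson intervals (95%) cover counting error only, since the reads carry no molecular identifiers and may be copies of 1 molecule. SDs are over 2 libraries, not stated beyond their labels to be separate cultures. No p-value was computed.

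Named loci were those with an Rnu symbol, the 15 with the highest counts, the first of each group of 3 or more equal loci, the 5 largest differences each way at 30 or more counts, the 3 on either side of the limit, and for the protein list the highest gene of each group and any past 2-fold. Other loci were named to complete groups of equal sequence.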

Additional observations from a re-analysis of the deposited data

How the results depend on the processing

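With only 2 libraries in 1 group, no difference has a replicate check. No paired analysis was possible because the libraries form 1 group. The share of counts held by the loci was 0.162 to 0.283% when either library was left out, and the number of groups with equal counts was 5 to 5. By replicate 2 alone these groups held 18 loci in place of 17, because Gm24497 had the count of Gm23444 and Gm23472 despite its different sequence. With 10 or more read-based counts as the limit, 136 loci would have entered in place of 27, beside 31, 23 and 32 for limits of 5 in both, 30 in both and 10 in either. With Rnu symbols alone, U1 came to 50.6 and U2 to 183 CPM, because most loci of both families carry other symbols. The ratio of U2 to U1 was 1.1 by TPM and 2.15 by counts per annotated base, in place of 2.5 by counts. The median difference of the 27 loci lay between -0.26 and -0.69 over all scalings run, below 0 in each. For the difference of single named loci, 97 alternatives lay within 0.81 (the SD over all genes) of the reported value without reversing a difference of over 2-fold, 1 moved further and 2 reversed. Among the 97, small differences reached or crossed 0: Gm22068 went from -0.36 to 0.14 and Gm22614 from -0.24 to 0 by posterior mean, and Rnu1b1 and Rnu1b2 from 0.77 to 0 in the read-based table. Gm24497 turned from 1.80 to -0.67 in the read-based table and to -0.47 by its posterior mean, and Gm25679 moved to -1.36 by its posterior mean; the cause was not tested. Posterior means, sums over equal sequences, grouping by sequence, the step with Gm24265 and a total without unnamed entries were added after seeing the data.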
